A study of Mus musculus with 16 samples.

Results

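The genes described are 10 of the 46983 in the count table, chosen by name for their part in microRNA (miRNA) and small interfering RNA (siRNA) silencing. No measured value was a rule of the choice, but earlier results of these data were known when it was made. Drosha and Dgcr8 encode the nuclear Microprocessor, Xpo5 the exporter Exportin-5, Dicer1 the cytoplasmic enzyme that dices hairpins, Ago1, Ago2 and Ago3 the Argonaute proteins that hold the small RNA, and Tnrc6a, Tnrc6b and Tnrc6c the GW182 proteins that link Argonaute to deadenylation. All 10 passed the filter on low counts, as did 12805 genes in all.

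A miRNA begins as a hairpin in a long primary transcript. The Microprocessor cuts it out, Exportin-5 carries it to the cytoplasm, Dicer trims it to a duplex and 1 strand is held by an Argonaute, which finds targets mainly through bases 2 to 8 of that strand, the seed. A transfected siRNA enters the same pathway at the Argonaute step. In embryonic stem cells (ESCs), miRNAs act on the cell cycle and on the exit from self-renewal, and Ago2 is the Argonaute that can cut a fully matched target.

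The cells were 46C ESCs, a line from strain 129Ola mice that carries Sox1-GFP, a reporter for neural differentiation. They were kept on gelatin with leukaemia inhibitory factor and transfected for 48 hr with siRNA against RAM, the activating subunit of the mRNA cap methyltransferase RNMT (gene symbol Ramac), or with a non-targeting control siRNA, so that every library came from siRNA-treated cells. Cells were lysed in cycloheximide, 10% of the extract was kept as input, and the rest was run through a sucrose gradient whose fractions 17 to 22 were pooled as polysomes. Stranded total RNA, depleted of ribosomal RNA, was sequenced from 4 replicates each of control input, RAM siRNA input, control polysomes and RAM siRNA polysomes. Small RNAs were not measured.

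The siRNA target was read first. Ramac was at 10.6, 10.1, 10.8 and 11.6 CPM (a gene's share of all reads counted in a library, on the counts-per-million scale after TMM scaling) in the 4 control input libraries and at 3.101, 2.66, 3.102 and 3.16 CPM in the 4 RAM siRNA input libraries, so that the groups did not overlap, and its log2 value fell by 1.84 (standard error, SE, 0.11, adjusted p = 7.24e-06). In polysomes Ramac was at 6.58, 6.86, 8.77 and 14.5 CPM in control and 0.961, 0.285, 2.25 and 2.600 CPM in RAM siRNA libraries, a log2 difference of -2.52 (SE 0.55, adjusted p = 0.128, with a block for the replicate number 2.36e-05). Throughout, p-values are those of the quasi-likelihood test in edgeR, adjusted by Benjamini-Hochberg over the 12805 genes. The 16 libraries held 16647523 to 20147833 counts. The 8 ESC markers summed to 4607 to 4931 CPM in control input and 3844 to 4438 CPM in RAM siRNA input, 5 neural markers to 74.7 to 85.3 and 81.0 to 93.9 CPM, 4 primitive endoderm markers to 7.27 to 9.14 and 7.24 to 9.88 CPM, and 4 fibroblast markers to 16.8 to 19.7 and 18.4 to 28.4 CPM, with no marker at 0 in every library. Markers of ESCs thus stood far above those of the other cell types. Of the ESC markers, 3 (Nanog, Esrrb and Dppa5a) were lower after RAM siRNA in input and 7 of 8 with the replicate number as a block. Of the primitive endoderm markers, Gata6 was higher (2.82 ± 0.392 CPM in control input, 4.32 ± 0.457 CPM in RAM siRNA input, SD, n = 4) and Sox7 was lower with the block (4.36 ± 0.418 and 2.55 ± 1.06 CPM), so that their sum moved little. With the block Pax6 was also lower and Nes and Pdgfra higher. Of all genes tested, 5.94% were lower and 6.95% higher in input without the block, and 19.0% and 20.3% with it. The part of these markers in the results that follow was not tested.

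A small RNA lies inside the coding sequence of Dgcr8. Dgcr8 (chr16:18253948-18289246, minus strand, GRCm38) holds the 79-base hairpin of Mir1306 at chr16:18284239-18284317, within a coding exon, and the Microprocessor is known to cut hairpins in the Dgcr8 message itself. The hairpin is shown from RefSeq (GRCm38.p6), with the mature arms in capitals.
Mir1306 hairpin: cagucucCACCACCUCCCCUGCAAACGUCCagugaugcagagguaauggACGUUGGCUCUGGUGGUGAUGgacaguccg

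The other genes lie at chr15:12824815-12935291 (Drosha, plus strand), chr17:46202782-46243598 (Xpo5, plus), chr12:104687742-104751952 (Dicer1, minus), chr4:126331704-126429556 and chr4:126435012-126468583 (Ago3 and its neighbour Ago1, both minus), chr15:73095844-73184935 (Ago2, minus), chr7:123123885-123195296 (Tnrc6a, plus), chr15:80711313-80941085 (Tnrc6b, plus) and chr11:117654289-117763439 (Tnrc6c, plus). Exons of Ago2 overlap those of Chrac1 on the opposite strand over 219 bases, and exons of Dgcr8 overlap those of Trmt2a on the opposite strand over 825 bases. On the same strand, exons of Dgcr8 overlap those of Gm49776, an annotated coding gene, over 327 bases, and besides Mir1306 a predicted miRNA gene, Gm24572, over 88 bases. Shorter overlaps on the same strand than the 327 bases are annotated for Drosha (72 bases), Tnrc6a (143 bases) and Tnrc6b (82 bases). That in Tnrc6b is with a miRNA gene, Mir5113. Whether the counting used strand is not given in the sources used here, so that reads in these stretches are uncertain.

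The silencing proteins are themselves encoded by messages with sites for miRNAs. The miR-17 family and the miR-290 to miR-295 cluster, abundant in ESCs, have seeds that differ by a shift of 1 base, and their mature sequences are shown from RefSeq with the seed in capitals because the sites that follow pair with them.
miR-17-5p: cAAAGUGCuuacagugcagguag
miR-20a-5p: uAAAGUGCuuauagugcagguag
miR-106b-5p: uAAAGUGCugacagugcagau
miR-294-3p: aAAGUGCUucccuuuugugugu
miR-295-3p: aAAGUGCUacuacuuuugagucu

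The first 3 share the seed AAAGUGC and the last pair AAGUGCU. The complement of the miR-17 seed, GCACTTT, was searched on the sense strand of annotated 3′ untranslated regions (UTRs). It was present in all 3 Argonaute and all 3 GW182 members and in none of Drosha, Dgcr8, Xpo5 and Dicer1. One match of each of the 6 genes is shown from GRCm38, strand in parentheses, with GCACTTT in capitals.
Ago1, chr4:126438521-126438545 (−): ttgacatttGCACTTTcagacgtga
Ago2, chr15:73096826-73096850 (−): agagctgttGCACTTTctctgtaat
Ago3, chr4:126343691-126343715 (−): gggaactttGCACTTTgtaagtcat
Tnrc6a, chr7:123193610-123193634 (+): acgggccctGCACTTTgaacaggct
Tnrc6b, chr15:80940538-80940562 (+): agaaactagGCACTTTggtggttca
Tnrc6c, chr11:117761132-117761156 (+): tcatgaaggGCACTTTtcagattgt

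These matches are descriptions and not sites shown to be used. GCACTTT was present in 13.1% of the 12119 tested genes with an annotated coding transcript, in 33.8% of the 2424 genes with 3′ UTRs of 2308 bases or more, and in 25 of 32 genes whose 3′ UTR reached 10000 bases, a group that includes Ago2, Ago3 and Tnrc6b. AGCACTT, the complement of the miR-294 seed, which overlaps GCACTTT by 6 bases, was present in Ago3, Tnrc6b and Tnrc6c and in 15.4% of the genes. Other seeds were searched as well. ATGCTGC, the complement of the miR-103 seed, was present in 7 members, Dgcr8 and Dicer1 among them, and in 11.5% of the genes. CTACCTC, the complement of the let-7a seed, was present in Ago2 and Ago3 and in 9.25% of the genes.

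Levels of different genes were compared per kilobase of annotated exon. In control input, the Microprocessor genes stood first. Drosha was at 18.8 ± 0.553 CPM per kilobase (SD, n = 4) and Dgcr8 at 13.01 ± 0.488, followed by Xpo5 at 11.9 ± 0.973 and Dicer1 at 9.46 ± 0.698. The ranges of Dgcr8 and Xpo5 overlapped, as did those of Dicer1 and Tnrc6a and of Tnrc6a and Ago2, and every other pair of neighbours in the order was apart. Tnrc6a was at 8.16 ± 0.375, Ago2 at 7.77 ± 1.35, Tnrc6c at 5.92 ± 0.0629, Ago1 at 4.53 ± 0.167, Tnrc6b at 2.76 ± 0.334 and Ago3 at 1.77 ± 0.271 CPM per kilobase, all SD with n = 4. In control polysomes the order changed. Drosha, at 27.8 ± 3.005 CPM per kilobase, was apart from all others, Dicer1 (8.18 ± 1.59) and Xpo5 (7.51 ± 2.45) came next with overlapping ranges, followed by Dgcr8 at 3.702 ± 0.826. The lowest mean in all 4 groups was that of Ago3, at 0.546 ± 0.107 CPM per kilobase in control polysomes. Its range overlapped that of Tnrc6b in each group except control input. These levels rest on annotated exon lengths, which for Tnrc6b (23677 bases) and Ago3 (16571 bases) include long 3′ UTRs.

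**Figure D1:**
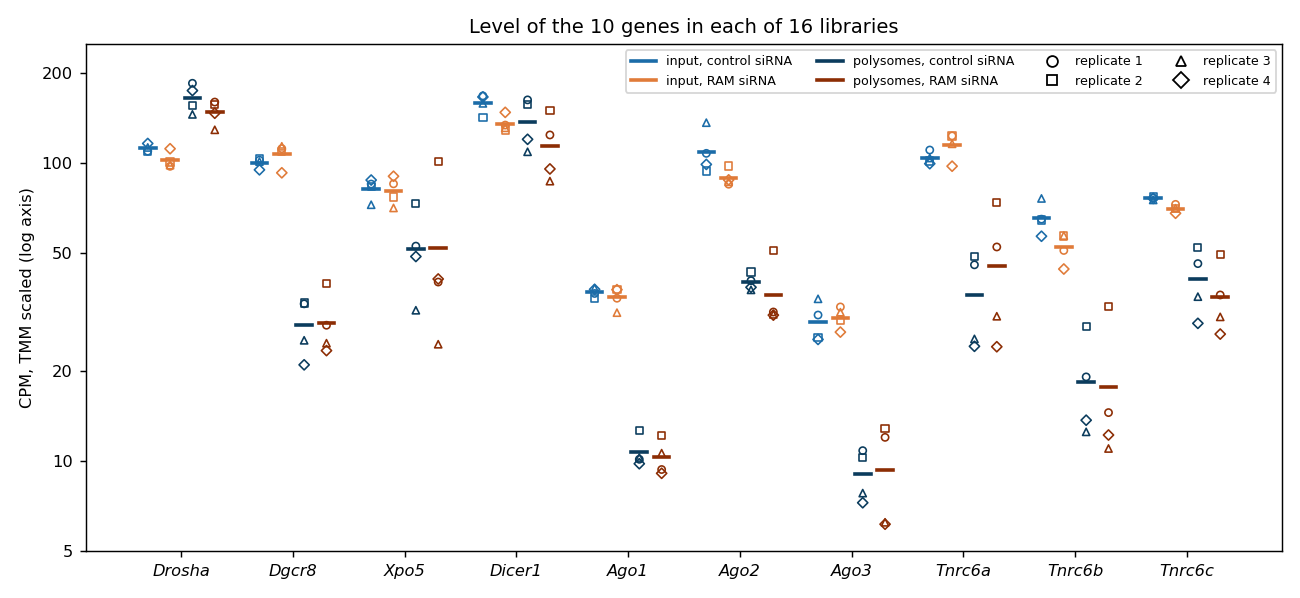
CPM (TMM scaled, log axis) of each gene in the 16 libraries; colours are the 4 groups, symbols the replicate number and bars the group means (n = 4). Drosha is the only gene with both polysome groups above both input groups, and Ago1, Ago2, Ago3, Dgcr8 and the Tnrc6 genes have both polysome groups below.

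Ago2 was the most abundant Argonaute message. Per kilobase, it made up 54.2 ± 2.66% (SD, n = 4) of the summed level of the 4 Argonaute genes in control input, Ago1 31.97 ± 2.97%, Ago3 12.4 ± 0.648% and Ago4, the fourth Argonaute, 1.47 ± 0.241%. Of the GW182 genes, Tnrc6a made up 48.4 ± 1.15%, Tnrc6c 35.2 ± 1.33% and Tnrc6b 16.4 ± 1.61%. In control polysomes the mean of Tnrc6c was the higher, at 47.3 ± 3.43% against 41.3 ± 2.95% for Tnrc6a, but the ranges met (44.7 to 52.1% and 37.99 to 44.95%). In RAM siRNA polysomes the order of the means was the other one, with 48.9 ± 5.72% for Tnrc6a and 40.9 ± 5.70% for Tnrc6c, so that no order held in polysomes. Shares of one family are not independent of each other.

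Polysomes were compared with input in control cells to ask how much of each message sat on many ribosomes. Of the 10 genes, 8 were lower in polysomes, among them every Argonaute and GW182 gene, and 1, Drosha, was higher. Dicer1 was not past the threshold. Of all genes tested, 34.3% were lower and 33.1% higher. The median log2 fold change of the 10 genes was -1.53, against 0.00 (-7.91e-04) over all genes tested. Values are relative to the other RNA of each library, so that a lower value is a lower share. Input RNA was purified with Trizol and polysome RNA with phenol and lithium chloride, and the purification cannot be told apart from the fraction. In these bulk samples, fewer cells with a transcript and less of it per cell cannot be told apart either.

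The Microprocessor partners went opposite ways. Drosha, the RNase III enzyme, was at 109, 109, 112 and 116 CPM in control input and 185, 156, 145 and 174 CPM in control polysomes. Every polysome library was above every input library, and the log2 fold change was 0.53 (SE 0.11, adjusted p = 0.00128). Dgcr8, its RNA-binding partner, was at 102, 103, 101 and 94.7 CPM in control input and 33.7, 33.9, 25.4 and 21.02 CPM in control polysomes. Every polysome library was below every input library, and Dgcr8 fell by 1.85 (SE 0.15, adjusted p = 1.89e-06).

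Xpo5, which exports the precursor hairpin, was at 84.8, 83.2, 72.3 and 87.5 CPM in control input and 52.5, 72.9, 32.03 and 48.5 CPM in control polysomes. The highest polysome library, replicate 2, just passed the lowest input library, replicate 3, and Xpo5 was lower by 0.71 on the log2 scale (SE 0.20, adjusted p = 0.00894). In RAM siRNA cells the log2 difference of Xpo5 was -0.65 and not past the threshold (adjusted p = 0.1397). Dicer1 was at 168, 142, 158 and 166 CPM in control input and 162, 157, 109 and 119.8 CPM in control polysomes. Polysome replicates 1 and 2 lay within the input range and replicates 3 and 4 below it, and the log2 difference was -0.25 (SE 0.14, adjusted p = 0.143).

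The 3 Argonaute genes were lower in polysomes by similar amounts. Ago2, the cutting Argonaute, was at 108, 93.7, 136 and 98.7 CPM in control input and 40.2, 43.01, 37.5 and 38.2 CPM in control polysomes, with no overlap, and was lower by 1.49 on the log2 scale (SE 0.13, adjusted p = 3.56e-06). Ago1 was at 36.5, 34.97, 37.98 and 37.6 CPM and 10.1, 12.7, 10.3 and 9.800 CPM, again with no overlap, a log2 fold change of -1.81 (SE 0.12, adjusted p = 4.66e-07). Ago3, which lies beside Ago1 on chromosome 4, was at 30.9, 25.9, 34.98 and 25.6 CPM and 10.8, 10.3, 7.81 and 7.25 CPM, a log2 fold change of -1.73 (SE 0.16, adjusted p = 4.47e-06).

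The GW182 genes spread more widely. Tnrc6a, first of the family in input, was at 110.3, 101, 104 and 99.3 CPM in control input and 45.5, 48.5, 25.7 and 24.2 CPM in control polysomes, a log2 fold change of -1.56 (SE 0.21, adjusted p = 5.80e-05). Tnrc6b was at 64.7, 64.2, 75.9 and 56.7 CPM and 19.1, 28.3, 12.5 and 13.7 CPM, a log2 fold change of -1.86 (SE 0.23, adjusted p = 2.86e-05). Tnrc6c was at 76.2, 76.99, 75.03 and 75.9 CPM and 45.9, 52.1, 35.6 and 28.9 CPM, a log2 fold change of -0.94 (SE 0.16, adjusted p = 3.29e-04). None of the 3 overlapped between the groups. In all, 7 of the 10 genes had every polysome library below every input library and 1 had every one above, against 30.4% and 30.7% of all genes tested.

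**Figure D2:**
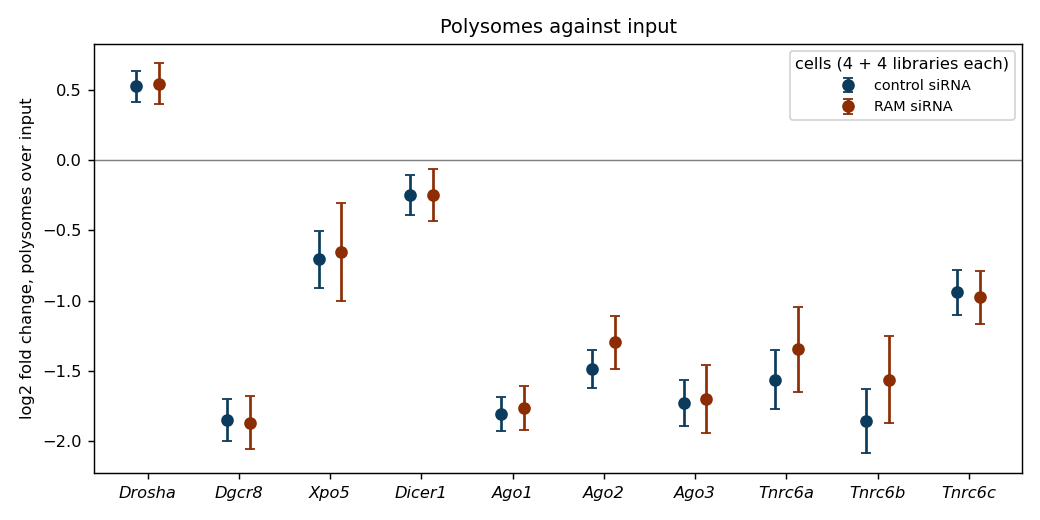
Log2 fold change of polysomes over input for each gene in control siRNA cells and in RAM siRNA cells; points are fitted values from 4 polysome and 4 input libraries and bars their standard errors. Drosha lies above 0 (0.53 in control cells), Dicer1 near it (-0.25), and the other genes lie below 0 in both kinds of cell.

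In RAM siRNA cells, the same comparison again gave Drosha higher in polysomes (0.55, adjusted p = 0.00974) and 7 genes lower. Ago1 was at -1.77, Ago2 at -1.30, Ago3 at -1.70, Dgcr8 at -1.87, Tnrc6a at -1.35, Tnrc6b at -1.56 and Tnrc6c at -0.98 on the log2 scale. Of all genes tested, 25.9% were lower and 27.3% higher here. These libraries are separate from the control libraries. Dicer1 (-0.25, adjusted p = 0.286) and Xpo5 were not past the threshold.

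The genes also differ in the length of their 3′ UTRs, which the choice of genes did not use. Drosha, the gene higher in polysomes, has an annotated 3′ UTR of 168 bases, shorter than that of any other member and at the 11.5th percentile of the 12119 genes. Xpo5 has 1327 bases, Dgcr8 1574, Tnrc6a 2345, Tnrc6c 2588, Dicer1 3851 and Ago1 4491. Ago2 has 11064 bases, Tnrc6b 11609 and Ago3 12742, all 3 beyond the 99.8th percentile. Across the 12119 genes, Spearman's rho between 3′ UTR length and the log2 fold change of polysomes over input was -0.302, and that with coding length was -0.173, a description over genes, which are not independent replicates. Of 5 equal bins of 3′ UTR length, the shortest (up to 284 bases) had a median log2 fold change of 0.31 and the longest (from 2308 bases) one of -0.56, with 58.1% of its genes lower in polysomes. Dicer1, in the longest bin, was at -0.25, above that median, while Ago1, Ago2, Ago3, Tnrc6a, Tnrc6b and Tnrc6c, also in the longest bin, were below it. Dgcr8, in the bin of 1269 to 2307 bases with a median of -0.11, was at -1.85. The part of 3′ UTR length in the members' values was not tested.

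**Figure D3:**
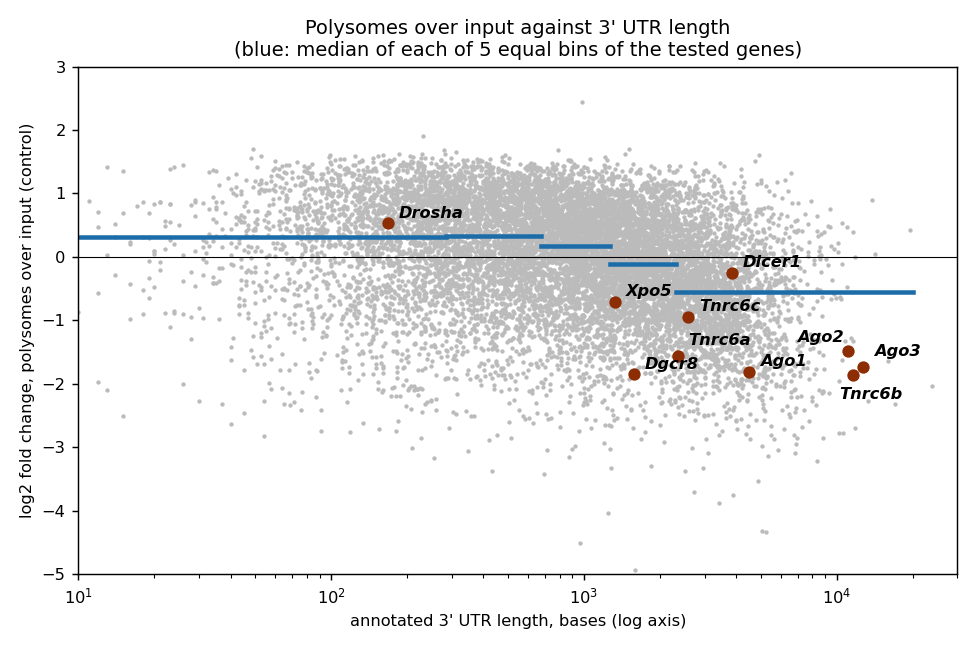
Log2 fold change of polysomes over input in control cells against annotated 3′ UTR length (log axis); grey points are tested genes with a 3′ UTR, red points the 10 genes and blue lines the median of each of 5 equal bins of the genes. The median goes from 0.31 in the shortest bin to -0.56 in the longest, and Ago2, Ago3 and Tnrc6b lie at the far right.

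RAM siRNA was compared with control siRNA in input to ask whether messages of the silencing machinery differ after RAM siRNA. The study's supplement names 1 RAM siRNA for these occasions. Effects of losing RAM therefore cannot be told apart from other effects of that siRNA. No gene of the 10 was past the threshold when replicates were treated as unrelated, where 5.94% of all genes tested were lower and 6.95% higher. Libraries with the same replicate number deviated together, and with that number as a block 5 genes were lower and 1 was higher, where 19.0% of all genes tested were lower and 20.3% higher. The genes lower with the block were Tnrc6b, Ago2, Dicer1, Drosha and Tnrc6c and the gene higher was Tnrc6a. The median log2 fold change of the 10 genes with the block was -0.09, against 0.00 (-3.59e-04) over all genes, and 7 of the 10 were below 0. Thus 5 of 10 lower is above the background share and 1 of 10 higher is below it, in a list too short for either to be called particular to it.

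Tnrc6b had the largest difference. It was at 50.8, 56.8, 57.00 and 44.03 CPM in RAM siRNA input, against 64.7, 64.2, 75.9 and 56.7 CPM in control. Each of the 4 pairs of one replicate number had it lower, though the groups overlapped, and it fell by 0.33 with the block (SE 0.05, adjusted p = 2.28e-05, without the block 0.0583). Tnrc6a, its paralog, was at 123, 123, 116 and 97.4 CPM in RAM siRNA input, against 110.3, 101, 104 and 99.3 CPM in control. It was higher in 3 of 4 pairs, replicate 4 being the exception, with a log2 fold change of 0.14 (SE 0.05, adjusted p = 0.0265, without the block 0.298). Tnrc6c, the third of the family, was at 72.5, 70.1, 70.4 and 67.7 CPM against 76.2, 76.99, 75.03 and 75.9 CPM. Its spread was the smallest of the 10 genes, and it alone had every RAM siRNA library below every control library, which 8.62% of all genes did, while 9.39% had every one above. The size was small, -0.12 on the log2 scale (SE 0.04, adjusted p = 0.0391, without the block 0.222).

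Dicer1 was at 134, 129, 131 and 148 CPM in RAM siRNA input, against 168, 142, 158 and 166 CPM in control. It was lower in all 4 pairs, by 0.23 on the log2 scale (SE 0.04, adjusted p = 3.46e-04, without the block 0.0663). Drosha was at 97.3, 100.5, 98.2 and 111 CPM against 109, 109, 112 and 116 CPM. Only RAM siRNA replicate 4 reached the control range, and the log2 fold change was -0.14 (SE 0.04, adjusted p = 0.0165, without the block 0.211). Dgcr8 was at 112, 109, 114 and 92.5 CPM against 102, 103, 101 and 94.7 CPM. It was higher in 3 of 4 pairs and not past the threshold (0.09, adjusted p = 0.139 with the block).

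Ago2 was at 84.7, 97.5, 86.2 and 87.6 CPM in RAM siRNA input, against 108, 93.7, 136 and 98.7 CPM in control. The control library of replicate 3 stood highest, and the pairs had log2 ratios of -0.34, 0.06, -0.66 and -0.17, so that replicate 2 went the other way. With the block Ago2 was lower by 0.28 (SE 0.07, adjusted p = 0.00343, without the block 0.0963), and without replicate 3 it was at -0.16 and not past the threshold (adjusted p = 0.0521). Ago1 was at 35.1, 37.5, 31.4 and 37.5 CPM against 36.5, 34.97, 37.98 and 37.6 CPM (-0.06, adjusted p = 0.462 with the block). Ago3 was at 32.9, 29.6, 31.6 and 27.1 CPM against 30.9, 25.9, 34.98 and 25.6 CPM (0.05, adjusted p = 0.571 with the block). Neither was past the threshold, nor was Xpo5, at 84.97, 76.7, 70.5 and 90.1 CPM against 84.8, 83.2, 72.3 and 87.5 CPM (-0.03, adjusted p = 0.639 with the block).

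The calls with the block were not equally firm. Dicer1 and Tnrc6b remained past the threshold with the block whichever replicate was left out, and in DESeq2 with the block. Ago2 was lost without replicate 3, Drosha without replicate 1, 2 or 3, Tnrc6a without replicate 1, 2 or 3, and Tnrc6c without any 1 replicate, while Dgcr8 was gained as higher without replicate 4. DESeq2 with the block and all replicates called none of Ago2, Drosha, Tnrc6a and Tnrc6c. Its adjusted p was 0.187 for Ago2, 0.0565 for Drosha, 0.0912 for Tnrc6a and 0.148 for Tnrc6c.

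**Figure D4:**
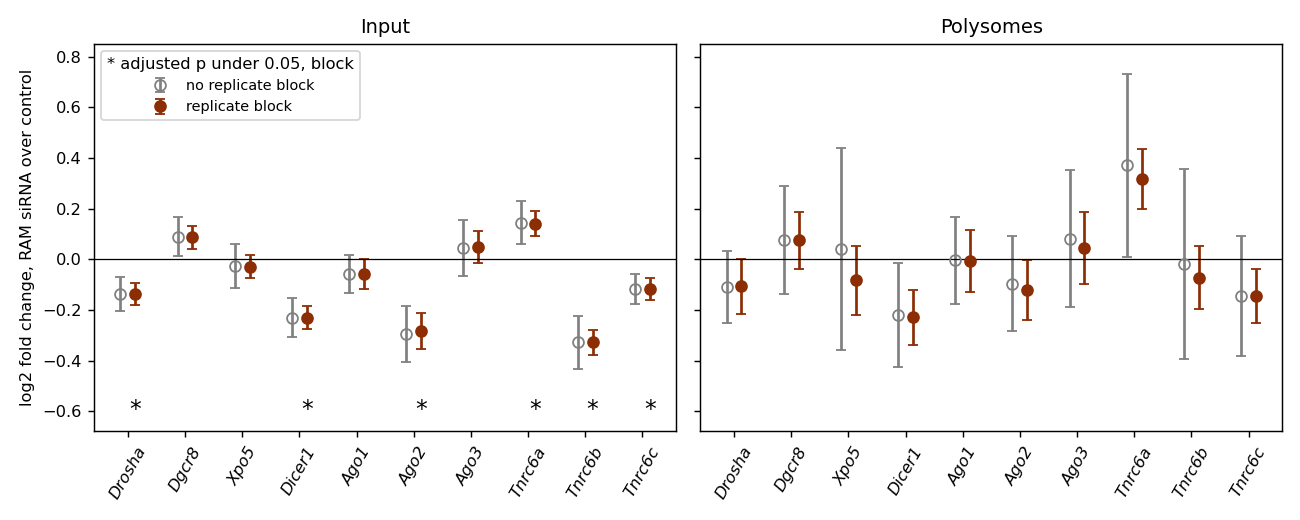
Log2 fold change of RAM siRNA over control for each gene in input (left) and polysomes (right), fitted both with a block for the replicate number and with none; points are fitted values from 4 and 4 libraries, bars standard errors, and asterisks mark an adjusted p under 0.05 with the block. Only genes in input carry an asterisk, with Tnrc6b lowest at -0.33, and the bars without a block are longer in polysomes.

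Ratios within the families set one message against another of the same library. The log2 ratio of Tnrc6a to Tnrc6b, from CPM without a correction for length, was 0.67 ± 0.16 (SD, n = 4) in control input and 1.14 ± 0.11 in RAM siRNA input, with no overlap (difference 0.47, exact permutation test, two-sided p = 0.0286, the smallest that 4 against 4 libraries allow). That of Ago2 to Ago3 was 1.89 ± 0.08 and 1.56 ± 0.18 (SD, n = 4), again with no overlap (difference -0.33, exact permutation p = 0.0286). Of 6 ratios compared, these had the lowest p, and Benjamini-Hochberg adjustment over the 6 gave 0.0858 for each, past no threshold of 0.05. The ratio of Tnrc6a to Tnrc6c differed by 0.26 (exact permutation p = 0.0571), and the other 3 had exact p of 0.114 or more. Each of the 6 went the same way in 4 of 4 pairs. The exact test treated the libraries as unrelated and did not use these pairs. The ratios of one family share genes and are not independent.

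The share of Ago2 among the Argonaute genes was 49.4 ± 1.37% in RAM siRNA input against 54.2 ± 2.66% in control (SD, n = 4 each). Ago4, the least abundant Argonaute, was at 1.69, 1.45, 1.53 and 1.12 CPM in control input and 2.01, 2.08, 2.41 and 1.92 CPM in RAM siRNA input, counts of 20 to 32 and 34 to 45 reads. The groups did not overlap, and its log2 fold change was 0.54 (SE 0.19, adjusted p = 0.0268 with the block, without it 0.0786).

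In polysomes, RAM siRNA gave no call among the 10 genes, with or without the block. Without it, 0.0234% of all genes tested were lower, 3 genes, and none was higher. With it, 4.97% were lower and 9.68% higher. The nearest to the threshold was Tnrc6a, at 52.2, 73.5, 30.6 and 24.2 CPM in RAM siRNA polysomes against 45.5, 48.5, 25.7 and 24.2 CPM in control (0.32, SE 0.12, adjusted p = 0.0851 with the block). Dicer1 was at 124, 149.7, 86.8 and 95.3 CPM against 162, 157, 109 and 119.8 CPM, lower in 4 of 4 pairs (-0.23, SE 0.11, adjusted p = 0.182 with the block). Both estimates had the sign of those in input. Tnrc6c was also lower in 4 of 4 pairs, by a log2 difference of -0.15 (adjusted p = 0.401 with the block).

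Tnrc6b was at 14.5, 32.95, 11.02 and 12.2 CPM in RAM siRNA polysomes, against 19.1, 28.3, 12.5 and 13.7 CPM in control (-0.07, adjusted p = 0.744 with the block). Ago2 was at 31.6, 50.7, 31.03 and 30.9 CPM against 40.2, 43.01, 37.5 and 38.2 CPM (-0.12, adjusted p = 0.543 with the block). In both genes RAM siRNA replicate 2 was the highest of its group and the other 3 pairs were below control. Drosha, the gene favoured in polysomes, was at 159.7, 157, 129 and 146 CPM against 185, 156, 145 and 174 CPM (-0.11, adjusted p = 0.564 with the block). Dgcr8 was at 28.5, 39.4, 24.8 and 23.5 CPM, Ago1 at 9.37, 12.2, 10.6 and 9.100 CPM, Ago3 at 12.01, 12.8, 6.24 and 6.14 CPM, Tnrc6c at 36.04, 49.1, 30.4 and 26.6 CPM and Xpo5 at 39.8, 101, 24.6 and 40.8 CPM in RAM siRNA polysomes, each overlapping its control range. Xpo5 spread over 4.11-fold within its group.

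Polysome loading, the difference between the RAM siRNA effect in polysomes and in input, was tested over all 16 libraries. Here, as in the polysome comparison above, values are relative to the other RNA of each library. A change shared by all messages would therefore not be seen. The study reported a lower ratio of polysomes to monosomes after RAM siRNA, measured on the gradients. It also reported a small set of genes with changed polysome loading relative to input. That set was larger than the calls given below. No gene of the 10 passed, and 0% of all genes tested did in edgeR (100 genes had an unadjusted p under 0.05, and DESeq2 called 1 gene). The members' estimates ran from -0.08 for Tnrc6c to 0.27 for Tnrc6b on the log2 scale, with standard errors from 0.16 (Drosha) to 0.45 (Xpo5). With a block for the replicate number within each fraction the standard errors were smaller, from 0.10 (Tnrc6c) to 0.16 (Xpo5), and Tnrc6b was at 0.21 (SE 0.13). No member was past the threshold there either, where 0.0156% of all genes tested were, 2 genes, and 637 had an unadjusted p under 0.05.

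The polysome libraries of one group differed from each other more than the input libraries. In control polysomes the mean of replicates 1 and 2 over that of replicates 3 and 4 was 1.88 for Tnrc6a, 1.81 for Tnrc6b, 1.56 for Xpo5, 1.52 for Tnrc6c, 1.46 for Dgcr8, 1.40 for Ago3, 1.40 for Dicer1, 1.14 for Ago1, 1.10 for Ago2 and 1.06 for Drosha. Every member was thus higher in replicates 1 and 2, and the median of the 10 ratios was 1.43, against 1.02 over all genes tested. In RAM siRNA polysomes the median was 1.497 against 1.02, with Tnrc6a at 2.30, Xpo5 at 2.16, Tnrc6b at 2.04 and Ago3 at 2.01. In input the medians were 0.964 in control and 1.05 in RAM siRNA cells. The labels give no batch or date for the replicates, so that what sets replicates 1 and 2 apart was not tested. Within replicates 1 and 2 alone, and within 3 and 4 alone, the 8 genes lower in polysomes and Drosha higher were again past the threshold in control cells, where 36.1% of all genes tested were lower and 33.1% higher within replicates 1 and 2 and 29.3% and 28.3% within 3 and 4. Dicer1 was at -0.01 within replicates 1 and 2 (adjusted p = 0.922) and at -0.50 within 3 and 4 (adjusted p = 0.0373).

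**Figure D5:**
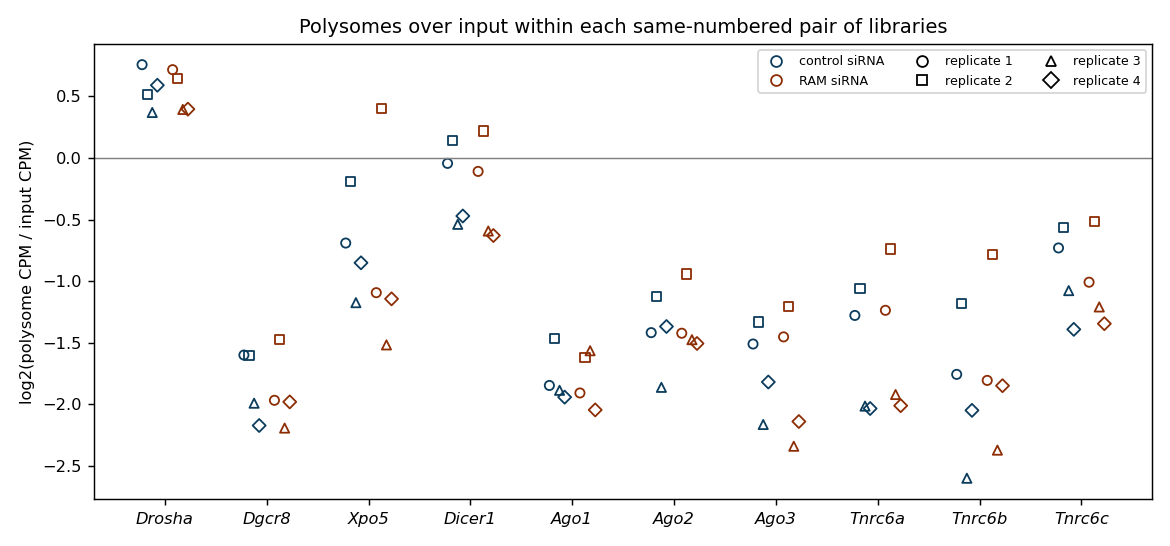
Log2 ratio of polysome to input CPM within each same-numbered pair of libraries, for control and RAM siRNA cells; symbols mark the replicate number. Replicate 2 (squares) lies at or near the top of most columns and replicates 3 and 4 (triangles, diamonds) near the bottom, as for Tnrc6a in control cells (-1.28, -1.06, -2.01 and -2.03 in replicates 1 to 4).

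Short sequences that earlier results of these data tied to the RAM siRNA effect were looked for in the members. They were picked from the same libraries, so that the shares of lower and higher genes given here are descriptions and no separate test. ACTATC was present in 13.1% of the 3′ UTRs, and 34.9% of the genes with it were lower in RAM siRNA input with the block, against 17.3% of those without it. Within 3′ UTRs of 2308 bases or more the shares were 33.4% and 17.7%. Of the 10 genes, Ago2, Ago3 and Tnrc6b held it, and 2 of these, Ago2 and Tnrc6b, were among the 5 lower genes. One match in each is shown with ACTATC in capitals.
Ago2, chr15:73100012-73100035 (−): actggctttACTATCtggacacct
Ago3, chr4:126345150-126345173 (−): agcagcacaACTATCtctgcaaaa
Tnrc6b, chr15:80936076-80936099 (+): aacgggggtACTATCtgaaccaga

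Of the 32 genes with a 3′ UTR of at least 10000 bases, 29 held ACTATC, and 17.2% of those 29 were lower. ACTATCA, present in 5.12% of the 3′ UTRs, was in no member. TGCTCAA was present in 7.64%, and 31.1% of the genes with it were higher in RAM siRNA input, against 19.6% of those without it. It was in Ago1, Ago3 and Tnrc6a, of which Tnrc6a was the member called higher.
Ago1, chr4:126439164-126439188 (−): aaagactcaTGCTCAAcagcctgct
Ago3, chr4:126338586-126338610 (−): gaggcacatTGCTCAAgattgtgat
Tnrc6a, chr7:123194550-123194574 (+): ctttttggcTGCTCAAcattaattg

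The siRNA sequences were not analysed here, and the part of these motifs in the members' values was not tested. For comparison, genes with the miR-17 match GCACTTT were lower in 22.5% and higher in 21.1% of cases, against 19.2% and 20.3% without it.

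Other genes of the pathway were counted from 4 further lists. The shares over all genes tested, given above, were, for RAM siRNA in input, 5.94% (lower) and 6.95% (higher), 19.0% and 20.3% with the block, and for control polysomes against input 34.3% and 33.1%. Of 9 Microprocessor cofactors, none was called in input without the block. With it Ddx5, a helicase of the Microprocessor, Srrt and Mettl3 were higher and Hnrnpa1 lower. In control polysomes Srsf3 and Hnrnpa1 were higher than in input and Ddx17 and Adar lower. Of 17 genes of precursor export, dicing and loading, none was called in input without the block, and Ran, Ptges3 (both lower) and Ago4 (higher) were called with it. In control polysomes 10 of the 17 were higher and 2 lower than input, against 33.1% and 34.3% of all genes tested. The median log2 fold change was 0.34, against -1.53 for the 10 members and 0.00 (-7.91e-04) over all genes, and the difference between the lists was not tested. Prkra, a partner of Dicer, was at 1.05 (SE 0.14, adjusted p = 6.05e-05). Tarbp2, the other known partner, was at 0.03 (adjusted p = 0.863). In RAM siRNA input Tarbp2 (0.09, adjusted p = 0.519) and Prkra (-0.11, adjusted p = 0.707) were not past the threshold.

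Of 10 genes of small RNA tailing and decay, 5 were lower in control polysomes and 1 higher, where 34.3% and 33.1% of all genes tested were. Lin28b, which blocks let-7 maturation, was at -2.67 (SE 0.15, adjusted p = 1.45e-07), Trim71, itself a let-7 target, at -2.22 (adjusted p = 1.16e-06) and Lin28a at -1.91 (adjusted p = 2.16e-05). In RAM siRNA input, none of the 10 was called without the block, and Trim71 (-0.23, adjusted p = 4.14e-04) and Eri1 were lower with it. Of 21 genes of deadenylation and silencing downstream of GW182, Lsm14a (-0.25, SE 0.07, adjusted p = 0.0249) and Wtip (-0.24, SE 0.07, adjusted p = 0.0295) were lower in RAM siRNA input. Lsm14a is a processing body protein. With the block 7 of the 21 were lower, Ddx6, Cnot6l and Cnot9 among them, and 1 was higher, against 19.0% and 20.3% of all genes tested. In RAM siRNA polysomes none was called against control without the block, and Cnot6 and Ajuba were lower with it, where 4.97% of all genes tested were. In input 17 of the 21 estimates were below 0 without the block, with a median of -0.10 against 0.00 (7.00e-04) over all genes.

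The genes whose log2 CPM followed Ago2 most closely over the 16 libraries, compared over 9135 genes whose mean reached 10 CPM, were Hdac4 (Pearson's r = 0.985), Tfcp2l1 (0.984) and Rad54l2 (0.983). For Dicer1 they were Satb1 (0.972), Haus6 (0.964) and Golga3 (0.951). The 16 libraries fall into input and polysomes, and Ago2 differed between them in control and in RAM siRNA cells. The values for Ago2 may therefore mostly follow the difference between fractions. Dicer1 was not past the threshold between fractions in either kind of cell, and what its values follow was not tested.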

How the data were processed

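RNA from 46C ESCs was sequenced in 16 libraries. The authors aligned reads to mm10 (GRCm38) with STAR 2.5.1b and counted them per gene with HTSeq, and the deposited values are raw counts of reads per Ensembl gene. The annotation release and the strand and overlap settings of the counting are not given in the sources used here. Of 46983 gene IDs, 46488 matched a symbol, and the table held 0 columns of other samples. Gene positions, exon lengths and UTRs (the coding transcript with the longest coding sequence) were read from the GENCODE M21 annotation of GRCm38, and miRNAs from RefSeq.

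Groups came from the sample labels. A gene was tested where 10 or more of the 16 libraries reached 1 CPM, the filter of the study's methods, with TMM scaling and the quasi-likelihood test of edgeR 4.0.16 (R 4.3.3), Benjamini-Hochberg adjustment over 12805 genes and a threshold of 0.05. Comparisons of RAM siRNA with control within a fraction and of polysomes with input in control cells used the 8 libraries concerned, and polysome loading, an interaction term, used all 16. The study's methods name no replicate factor, so none was used at first. The study describes 4 independent occasions, with input and polysomes taken from the same extract. Same-numbered libraries deviated together from their group means over genes (mean r = 0.462 between the input groups, lowest 0.288, and 0.747 between the polysome groups, lowest 0.513, against -0.151 and -0.246 for different numbers). Values with the replicate number as a block are therefore given where the call changes. The counts of lower and higher genes that the study reported for RAM siRNA transcripts are near those with the block in input, and far above those without it. CPM values used TMM factors over all 16 libraries. Standard errors are those of the fit. The genes named besides the 10 members and Ramac were Ago4, Tarbp2 and Prkra, and up to 4 genes of each list past the threshold in input without the block. Other genes are named in counts of 5 or fewer or were picked after their values were seen (Ddx6, Cnot6l, Cnot9, Lin28a, Lin28b, Trim71 and the miRNA hosts). The 10 members and all lists were chosen with earlier results of these data known. Alternatives were RLE scaling, library size only, other filters, DESeq2 1.42.0, limma-voom 3.58.1, pairs of replicates, all 16 libraries in one model and leaving out each library. The block combined with DESeq2, with limma-voom or with a replicate left out was added after seeing the data, as were the family ratios with a library left out. The procedures were run on simulated counts that held no replicate effect, which does not test them on libraries that deviate together. No 2 libraries agreed within sampling noise (chi-square per gene of 4.57 or more within groups). The labels and the methods differ on transfection reagent and siRNA amount, which are therefore not given.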

Additional observations from a re-analysis of the deposited data

Results flagged for a closer look

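In 3 of 40 sets of 4 libraries (10 genes in 4 groups), 1 library lay far from the other 3, where chance alone would give such a gap in about 1 set of 20. Ago1 in control polysomes was at 12.7 CPM in replicate 2, against 9.80 to 10.3 CPM in the others. Ago2 in RAM siRNA polysomes was at 50.7 CPM in replicate 2, against 30.9 to 31.6 CPM in the others. Tnrc6b in RAM siRNA polysomes was at 32.95 CPM in replicate 2, against 11.02 to 14.5 CPM in the others. All 3 are polysome libraries of replicate 2. Without RAM siRNA polysome replicate 2, the estimated change of polysome loading was -0.06 for Ago2 and -0.22 for Tnrc6b, against 0.15 and 0.27 with it, none past the threshold.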

How the results depend on the processing

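The comparison of polysomes with input was the steadiest. Drosha was higher and 7 genes were lower under all 11 alternatives and with any 1 library left out. Xpo5 lost its call with all 16 libraries in one model and in RAM siRNA cells, and Dicer1 was called lower within replicates 3 and 4 alone. Without a filter on low counts, 6760 genes were lower in place of 4388 and the median of all genes was -0.34, which follows from the low genes added. Among the 10 genes, the block changed no other call than those given in the report.

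In RAM siRNA input, genes lower numbered 761 and higher 890, against 2433 and 2595 with the replicate block, 1551 and 1598 with DESeq2 and the block, 2431 and 2603 with limma-voom and the block, 1213 and 1416 within replicates 1 and 2, 0 and 0 within replicates 3 and 4, and 86 and 100 with all 16 libraries in one model. Leaving out 1 library gave 426 to 1149 lower and 482 to 1357 higher, and leaving out replicate 1, 2, 3 or 4 with the block 1705, 1929, 2034 and 2396 lower and 1874, 2097, 2197 and 2571 higher. Of the 10 genes, 0 were called, against 5 lower and 1 higher with the replicate block and with limma-voom and the block, 2 lower with DESeq2, with DESeq2 and the block and without a filter on low counts, 1 lower with library size only and with filterByExpr, and 2 lower and 1 higher within replicates 1 and 2. Leaving out 1 library gave 0 to 1 lower and 0 to 1 higher (Tnrc6b lower without control replicate 4, Dicer1 lower and Tnrc6a higher without RAM siRNA replicate 4), and 1 replicate with the block 2 to 4 lower and 0 to 2 higher. The cause was not tested.

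After RAM siRNA, 3 genes were lower and 0 higher in polysomes, against 18 and 21 without a filter, 10 and 8 with filterByExpr, 144 and 156 with DESeq2, 636 and 1239 with the replicate block, 616 and 972 with DESeq2 and the block, 630 and 1223 with limma-voom and the block, 0 lower within either pair of replicates, 249 and 204 with all 16 libraries, and 0 to 17 and 0 to 31 with 1 library left out. None of these called a member. Polysome loading had 1 gene lower in DESeq2 and 2 with the replicate block within each fraction.

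Uncalled estimates that changed sign were, in input, Xpo5 within replicates 3 and 4 (0.00364) and from -0.0825 to 0.0289 with 1 library left out (with the block -0.05075 to 2.30e-04), Ago1 within replicates 1 and 2 (0.0228) and from -0.112 to 0.0112 with 1 replicate left out of the block, and Ago3 within replicates 3 and 4 (-0.0503) and from -0.0176 to 0.139 with 1 library left out. In polysomes they were Xpo5 (library size only -0.0405, limma-voom -0.0904, replicate block -0.0834, replicates 3 and 4 -0.254, DESeq2 and limma-voom with the block -0.102 and -0.0865), Ago1 and Ago3 within replicates 3 and 4 (0.0328 and -0.228) and Ago2 and Tnrc6b within replicates 1 and 2 (0.0164 and 0.0321). With 1 library left out these ran from -0.497 to 0.259 for Xpo5, -0.0799 to 0.0717 for Ago1, -0.101 to 0.22 for Ago3, -0.487 to 0.263 for Tnrc6b and -0.0898 to 0.157 for Dgcr8, and for polysome loading from -0.0587 to 0.27 for Ago2 and -0.225 to 0.55 for Tnrc6b. The ratios of Tnrc6a to Tnrc6b and of Ago2 to Ago3 kept their direction with any library left out (0.39 to 0.51 and -0.39 to -0.27), where 3 against 4 libraries allow no p below 0.0571.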

Other observations

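The PIWI pathway, the germline branch of small RNA silencing that acts on transposons, was read from 8 genes, of which all passed the filter on low counts. In RAM siRNA input 3 were higher without the block (Piwil4, Tdrd9 and Mov10l1) and 6 with it, where 6.95% of all genes tested were higher without it and 20.3% with it. All 8 estimates were above 0, with a median log2 fold change of 0.38 against 0.00 (7.00e-04) over all genes. Mov10l1, an RNA helicase of the pathway, had 73.8 ± 5.58 CPM (SD, n = 4) in control input, 94.4 ± 12.2 CPM (SD, n = 4) after RAM siRNA and a log2 fold change of 0.35 (edgeR, adjusted p = 0.0278). For Piwil4 these were 3.46 ± 0.571 CPM, 5.87 ± 0.771 CPM and 0.76 (adjusted p = 0.00755), and for Tdrd9 2.600 ± 0.584 CPM, 4.91 ± 0.924 CPM and 0.92 (adjusted p = 0.00926). Both are low, at 36 to 123 reads a library in input. In RAM siRNA polysomes no PIWI gene was called without the block and 5 were higher with it, against 9.68% of all genes tested.

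Transcripts that host miRNA clusters are made in the nucleus and cut there. Of 7 listed, 3 passed the filter, Mir17hg (host of the miR-17 cluster), Mirg and Mir22hg. In control polysomes all 3 were far below input, at -4.24, -3.99 and -3.23 on the log2 scale, where 34.3% of all genes tested were lower. Mir17hg was at 77.5 ± 13.3 CPM in control input and 4.196 ± 1.66 CPM in control polysomes (SD, n = 4 each). In RAM siRNA input Mir17hg was at 109 ± 30.4 CPM (SD, n = 4), a log2 fold change of 0.47 with the block (adjusted p = 4.80e-06, without it 0.0959), and Mirg was at 0.35 (adjusted p = 3.03e-05 with the block, 0.217 without it).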
